A study of Mus musculus with 9 samples.

Results

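The Hox genes of the 4 mouse clusters were followed in embryonic stem cells (ESCs) in which a forced E2A homodimer was switched on. Members were all genes of the FPKM table whose symbol is Hox followed by a cluster letter and a paralog number, which gave 39 genes of 47729, and 38 of them are described here. The Hoxa cluster on chromosome 6 holds 10 of the 38, the Hoxb cluster on chromosome 11 holds 10, the Hoxc cluster on chromosome 15 holds 9 and the Hoxd cluster on chromosome 2 holds 9. E2A is a basic helix-loop-helix factor encoded by Tcf3, and the construct links a FLAG-tagged E47 unit to another E47 unit in a single protein. It was placed under doxycycline (dox) control by cassette exchange upstream of Hprt in 1 mouse ESC line kept in LIF and serum, so all libraries carry the same transgene. Cells without dox (0 h) were compared with cells given dox at 1 µg/ml for 18 h or 24 h, with 3 biological replicates at each time point and 9 libraries in all. No library without dox was taken at 18 h or 24 h, and none came from cells without the construct. The homodimer, dox itself and time in culture therefore cannot be told apart. The treatment and title labels give 18 h and 24 h, whereas the treatment protocol text gives 24 h and 48 h, and the former were used.

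Hox genes encode homeodomain transcription factors that give the axial levels of the embryo their identity. Within a cluster the low-numbered paralogs are transcribed first and most anteriorly, in the hindbrain, and the high-numbered ones later, towards the tail and in the distal limb. In pluripotent cells the clusters are known as targets of Polycomb repression, and retinoic acid, Wnt and FGF signals, in part through Cdx factors, are known to open them during posterior development. E2A binds E-boxes, written CANNTG, with a known preference for CAGCTG and CACCTG. The comparison here asks which Hox genes are transcribed in self-renewing ESCs and which differ after 18 h or 24 h of dox.

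Each library held between 22032268 and 26477008 reads on genes, of which the 38 Hox genes together took between 94 and 175, or 4.20 to 7.02 RPM (reads-per-million of the library's reads on genes). Tcf3, which checks the induction where reads of the construct fall on this gene, lay between 37.7 and 41.2 FPKM at 0 h, between 107 and 116 FPKM at 18 h and between 93.6 and 108 FPKM at 24 h. The 10 ESC markers summed to between 1316 and 2004 FPKM at 0 h, between 1028 and 1629 FPKM at 18 h and between 983 and 1600 FPKM at 24 h, and none was at 0. The 10 feeder fibroblast markers summed to between 9.28 and 17.4 FPKM at 0 h, between 9.10 and 14.6 FPKM at 18 h and between 9.59 and 14.6 FPKM at 24 h. In bulk libraries such as these, fewer cells transcribing a gene and less RNA per cell cannot be told apart.

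Sequences before the transcription start are shown for 4 members. Hoxa7 and Hoxd8 are the members that a count model called as changed, Hoxd13 stands for the members detected at all time points, and Hoxa5 is a silent member whose promoter holds the CAGCTG form. All are RefSeq sequences of GRCm38.p6, written 5′ to 3′ on the gene's own strand up to the base before the start, with each CANNTG in capitals. They are chr6:52218574-52218633 on the minus strand for Hoxa7, chr2:74704365-74704614 on the plus strand for Hoxd8, chr2:74667975-74668224 on the plus strand for Hoxd13 and chr6:52204588-52204837 on the minus strand for Hoxa5.
Hoxa7: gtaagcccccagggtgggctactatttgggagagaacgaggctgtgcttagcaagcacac
Hoxd8: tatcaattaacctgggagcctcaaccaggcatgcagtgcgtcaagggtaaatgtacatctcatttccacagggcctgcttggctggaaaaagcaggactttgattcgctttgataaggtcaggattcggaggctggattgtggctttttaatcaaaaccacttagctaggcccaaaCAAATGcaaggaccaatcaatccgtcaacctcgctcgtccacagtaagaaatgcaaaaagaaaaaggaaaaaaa
Hoxd13: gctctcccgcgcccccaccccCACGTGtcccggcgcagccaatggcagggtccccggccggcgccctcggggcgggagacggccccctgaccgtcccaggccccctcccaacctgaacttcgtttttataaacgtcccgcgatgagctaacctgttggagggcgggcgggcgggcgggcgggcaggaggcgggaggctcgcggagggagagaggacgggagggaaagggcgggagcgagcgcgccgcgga
Hoxa5: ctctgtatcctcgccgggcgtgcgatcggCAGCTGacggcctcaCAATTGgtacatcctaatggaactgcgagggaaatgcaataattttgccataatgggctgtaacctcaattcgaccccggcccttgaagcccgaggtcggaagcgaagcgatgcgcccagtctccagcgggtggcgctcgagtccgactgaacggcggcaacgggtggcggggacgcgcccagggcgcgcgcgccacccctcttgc
The E-box of Hoxd8 begins 74 bases before the start, that of Hoxd13 229 bases before it, and those of Hoxa5 221 and 206 bases before it. RefSeq windows of 300 bases, from 250 before to 50 after the start, were matched for 22 of the 38 members, with 24 windows because Hoxa10 and Hoxd11 each have a pair. Of these 24 windows, 17 held CANNTG, against 72.3% of all 32851 promoter windows searched on both strands. CAGCTG, which reads the same on both strands and is itself a CANNTG, was in 4 member windows, those of Hoxa3, Hoxa5, Hoxa6 and Hoxa11, against 16.3% of all windows. CACCTG, on either strand, was in 0 member windows, against 20.2% of all windows. The whole Hoxa7 window held no CANNTG, and only 60 of its bases are shown. The annotated Hoxa7 gene reaches further upstream, to base 52221854 of chromosome 6, and that part was not searched. These counts describe the letters in the windows only.

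Before induction, 4 of the 38 Hox genes were detected, where detected means a level in FPKM (fragments scaled for exon length and library size) of at least 0.1 in all 3 libraries. They were Hoxb7 and Hoxb9 in the Hoxb cluster, Hoxc13 in the Hoxc cluster and Hoxd13 in the Hoxd cluster. By the same rule 60.81% of the 22048 protein coding genes in the table were detected at 0 h. None of the 38 reached 1 FPKM in any library, and their highest value was the 0.755 FPKM of Hoxd13 in 0 h replicate 2. At 18 h and at 24 h 3 members were detected, since Hoxb7 was below 0.1 FPKM in 1 library at 18 h and in 1 at 24 h, while Hoxb9, Hoxc13 and Hoxd13 stayed above it. These 4 genes held between 44.0% and 65.4% of the reads of the 38 genes in a library.

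Of the other 34 members, 16 were silent, which here means 3 reads or fewer in every one of the 9 libraries. In the Hoxa cluster these were Hoxa2, Hoxa4, Hoxa5, Hoxa6, Hoxa9 and Hoxa13. In the Hoxb cluster they were Hoxb5 and Hoxb6, in the Hoxc cluster Hoxc5, Hoxc11 and Hoxc12, and in the Hoxd cluster Hoxd1, Hoxd3, Hoxd4, Hoxd11 and Hoxd12. Their reads over all 9 libraries ranged from the single read of Hoxd3 to the 16 reads of Hoxd1. For these genes 3 reads in the shallowest library would equal between 0.0247 and 0.158 FPKM depending on exon length. A level below that counts as silent here, even where reads recur, as in Hoxa2 with 1 or 2 reads in each of the 9 libraries. Hoxd3 and Hoxd4 also share 62.3% and 52.3% of their exons with other genes on the same strand, so that their reads are uncertain where counting left out shared reads. The remaining 18 members had between 10 and 45 reads in all and a mean below 0.1 FPKM. The 4 detected genes belonged to paralog groups 7, 9 and 13, and silent genes were found in all 4 clusters.

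**Figure D1:**
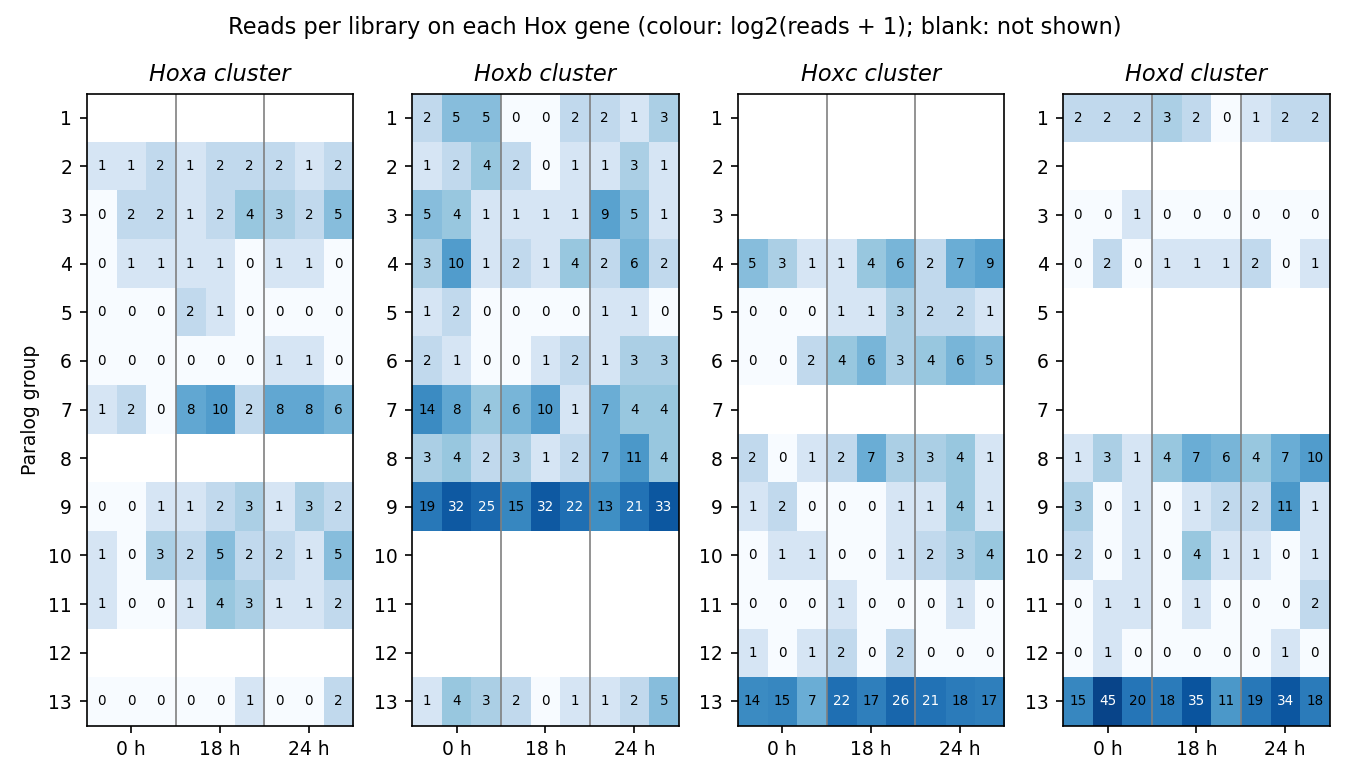
Reads on each Hox gene in each library, 1 panel per cluster, with paralog groups 1 to 13 down the vertical axis and the 9 libraries along the horizontal axis in the order 0 h, 18 h and 24 h, replicates 1 to 3 within each. Darker blue stands for more reads on a log2(reads + 1) scale and blank cells for paralogs that are not shown. Hoxb9, Hoxc13 and Hoxd13 stand out at every time point, and Hoxa7, Hoxc6 and Hoxd8 are darker in most libraries at 18 h and 24 h than at 0 h.

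The order of the levels at 0 h, per exon length, was Hoxd13 at 0.460 ± 0.263 FPKM (SD, n = 3), Hoxb9 at 0.425 ± 0.106 FPKM, Hoxb7 at 0.238 ± 0.132 FPKM and Hoxc13 at 0.208 ± 0.0671 FPKM. Hoxb4 followed at 0.0764 ± 0.0760 FPKM and Hoxb1 at 0.0750 ± 0.0340 FPKM. Neighbours in this order lay within 1 SD of each other, except for Hoxb9 and Hoxb7 and for Hoxc13 and Hoxb4, which differed by more than the SD of either gene.

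Hoxb9, a posterior paralog known from the thoracic spinal cord and rib cage, had 0.309, 0.518 and 0.447 FPKM at 0 h. The values were 0.255, 0.499 and 0.353 FPKM at 18 h and 0.199, 0.320 and 0.471 FPKM at 24 h. All 3 time points overlapped. The log2 fold-change on the log2(FPKM+0.1) scale was -0.17 ± 0.31 (SE) at 18 h and -0.32 ± 0.31 at 24 h (limma adjusted p 0.762 and 0.540), with 95% intervals of -0.87 to 0.52 and -1.01 to 0.38. Without 18 h replicate 1 the 18 h value was 0.01.

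Hoxb7, a central paralog, had 0.380, 0.216 and 0.119 FPKM at 0 h, 0.170, 0.260 and 0.0268 FPKM at 18 h, and 0.178, 0.102 and 0.0951 FPKM at 24 h. The lowest value, 1 read in 18 h replicate 3, took it out of the detected genes at that time point, and the groups overlapped. Its log2 fold-change was -0.48 ± 0.44 at 18 h and -0.53 ± 0.44 at 24 h (limma adjusted p 0.540 and 0.465). The 95% intervals reached from -1.47 to 0.51 and from -1.53 to 0.46, and so held both a loss of more than 1 log2 unit and a gain.

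Hoxc13, known for its part in hair and nail formation, alone among these 4 genes had a limma p below 0.05 before adjustment. Its FPKM was 0.239, 0.254 and 0.131 at 0 h, 0.391, 0.277 and 0.437 after 18 h, followed by 0.336, 0.287 and 0.254 after 24 h. All 3 libraries at 18 h lay above all 3 at 0 h, and those at 24 h met the top of the 0 h range through replicate 3. The log2 fold-change at 18 h was 0.62 ± 0.26 with a 95% interval of 0.04 to 1.19 (limma unadjusted p 0.0385, adjusted p 0.170), and at 24 h it was 0.37 ± 0.26 (adjusted p 0.379).

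Hoxd13, a distal limb and genital factor at the end of its cluster, had 0.253, 0.755 and 0.370 FPKM at 0 h. It had 0.317, 0.566 and 0.183 FPKM at 18 h and 0.301, 0.537 and 0.266 FPKM at 24 h. Replicate 2 was the highest library at each of the 3 time points, with 45, 35 and 34 reads, and the groups overlapped throughout. The log2 fold-change was -0.28 ± 0.41 at 18 h and -0.20 ± 0.41 at 24 h (limma adjusted p 0.707 and 0.792), and without 0 h replicate 2 these values were 0.07 and 0.15. Hoxb4, a hindbrain and spinal cord paralog with the next mean in the order at 0 h, rested on 10 reads in 0 h replicate 2 and 1 to 6 reads in each of the other 8 libraries.

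**Figure D2:**
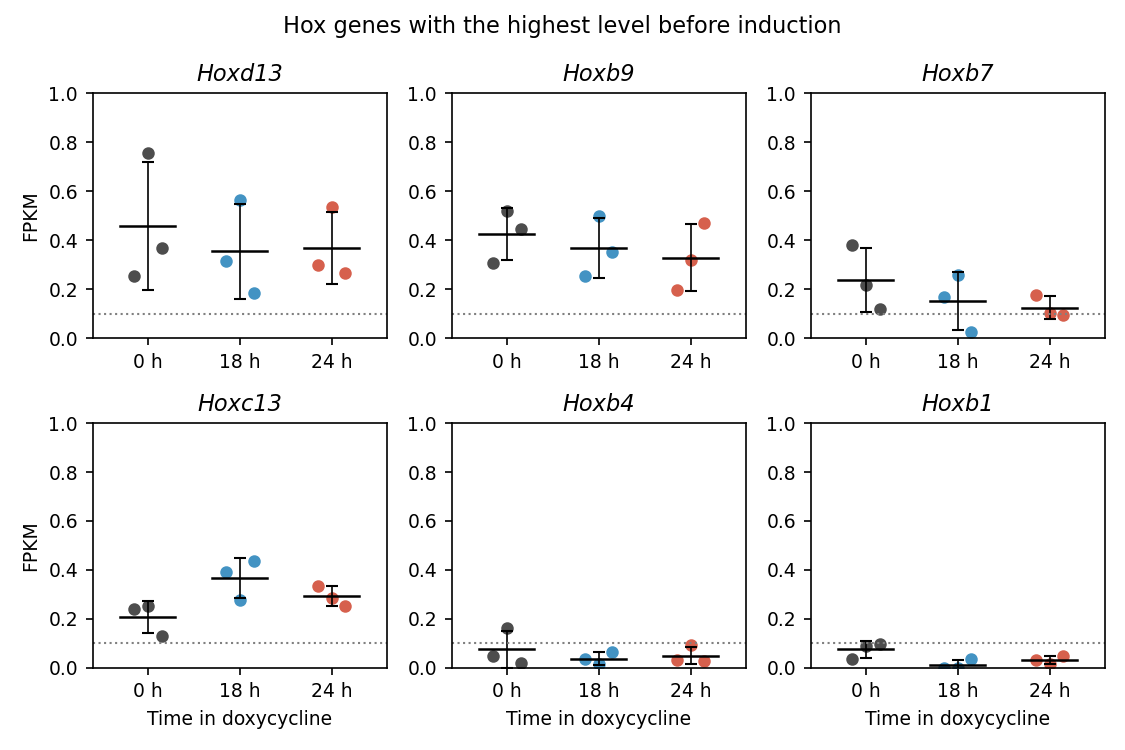
FPKM of the 6 Hox genes with the highest mean at 0 h among those described, 1 panel per gene, with time in dox on the horizontal axis. Points are the 3 libraries of a time point in replicate order, horizontal lines the means, error bars the SD, and the dotted line the detection limit of 0.1 FPKM. The time points overlap in every panel except for Hoxc13, whose 18 h libraries all lie above its 0 h libraries, and Hoxb1, whose 18 h libraries all lie below them.

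Of the 38, 4 passed the filter of a mean of at least 0.1 FPKM over the 9 libraries and were tested by limma, and 0 of the 4 was called, where a call needed an adjusted p no higher than 0.05 together with a change of 1 log2 unit or more. Of the 17951 genes tested, 2.06% were called in either direction at 18 h compared with 0 h, at 24 h compared with 0 h 2.9%, and at 24 h compared with 18 h 0.0223%. At an unadjusted p below 0.05 limma gave 1 member at 18 h, Hoxc13, and 0 at 24 h compared with 0 h and at 24 h compared with 18 h. Over the 17951 genes, 2364 were higher and 2204 lower at this p at 18 h. At 24 h there were 2690 and 2372 compared with 0 h, and 559 and 445 compared with 18 h. The filter kept Hoxb7, the nearest member above it, with a mean of 0.172 FPKM, and left out Hoxa7 and Hoxd8, the nearest below it, with means of 0.0698 and 0.0695 FPKM. edgeR without a block tested 16 members on reads recovered from the filtered table and called 0 in each of the 3 comparisons. In the same order, 5, 3 and 2 members had an unadjusted p below 0.05. Of the 19210 genes in this fit, 2592 were higher and 2316 lower at this p at 18 h. At 24 h there were 2943 and 2574 compared with 0 h, and 587 and 396 compared with 18 h. DESeq2 also called 0 of the 4, 4 and 0 members to which it gave an adjusted p, with 1, 2 and 0 members at an unadjusted p below 0.05. In the same order, DESeq2 gave an adjusted p to 16230, 16230 and 12878 genes. Of these, 2268 were higher and 2098 lower at this unadjusted p, then 2549 and 2367, and 417 and 283. The member counts at this p also took in members without an adjusted p, Hoxa7 among them, so the sets differ.

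**Figure D3:**
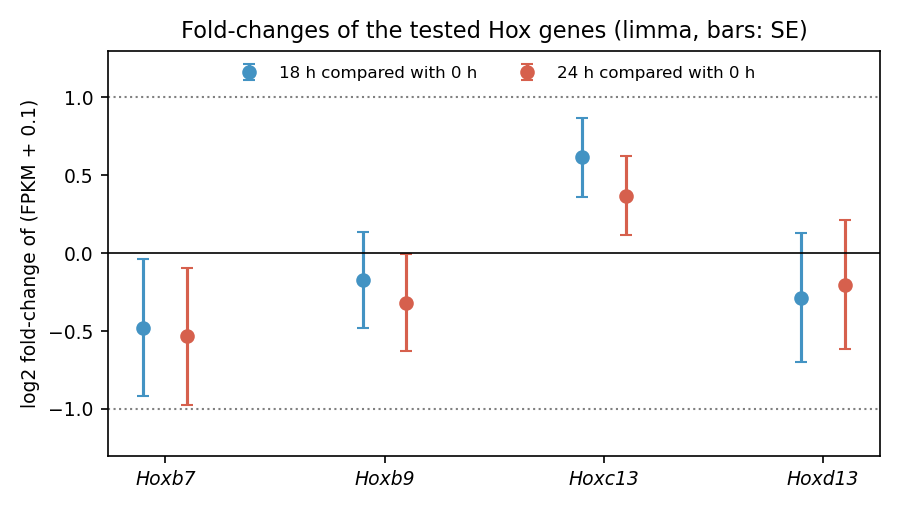
log2 fold-changes of FPKM + 0.1 against 0 h for the 4 tested Hox genes at 18 h (blue) and 24 h (red), from limma, with bars of 1 SE. Dotted lines mark the fold-change of 1 log2 unit that a call required, and all 8 values lie within them.

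Among the members below the filter, the central paralogs Hoxa7, Hoxc6 and Hoxd8 had more reads after induction. Hoxa7, known for thoracic vertebral identity, had 1, 2 and 0 reads at 0 h, 8, 10 and 2 reads at 18 h, and 8, 8 and 6 reads at 24 h. Every 24 h library lay above every 0 h library, while at 18 h replicate 3 was as low as the highest 0 h library in reads. The summed rate was 6.61-fold that of 0 h at 18 h (exact 95% interval of counting error 1.96 to 34.7) and 6.75-fold at 24 h (2.03 to 35.2). These intervals cover counting error only.

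The filtered table holds exactly the 19210 genes with at least 3 reads in at least 3 libraries, and Hoxa7 and Hoxc6 had 3 reads only in libraries with dox. A gene low at 0 h could thus enter this table only by being higher with dox, so the calls of edgeR on it are given as descriptions. The replicate numbers pair the libraries, and with the replicate block edgeR called Hoxa7 up at 18 h (log2 fold-change 2.56, adjusted p 0.0207) and at 24 h (2.64, adjusted p 0.0136). Of the 16 members tested it was the only one called up at 18 h, where 2.63% of the 19210 genes tested were, and with Hoxd8 1 of 2 called up at 24 h, where 3.53% were. Without the block edgeR gave the same gene adjusted p of 0.0677 and 0.0523. Over all 27823 genes with a read, where no such filter acts, it was called at both times, with adjusted p of 0.0251 and 0.0149 with the block and 0.0316 and 0.0235 without it, and it was the only one of the 38 members called there. Of the 27823 genes, 505 and 658 were called up at 18 h and 24 h with the block, and 463 and 626 without it. On the filtered table with the block, the 18 h call was lost without 0 h replicate 1, 18 h replicate 1 or 18 h replicate 2. The 24 h call there was lost without 0 h replicate 1 or 24 h replicate 3. The edgeR adjusted p over these left-out fits reached 0.106 and 0.0611. No library was left out of the edgeR fits over all genes with a read. Over the 9 left-out fits on the filtered table, the Hoxa7 log2 fold-change ran from 2.33 to 3.19 at 18 h and from 2.32 to 3.26 at 24 h. It was highest without 0 h replicate 2 at both times. DESeq2 gave Hoxa7 no adjusted p. Antisense Hoxaas3 shares 586 nt, or 20.4%, of the Hoxa7 exons and had 0 to 2 reads in each library.

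Hoxd8, a trunk paralog, had 1, 3 and 1 reads at 0 h, 4, 7 and 6 after 18 h, followed by 4, 7 and 10 after 24 h. All libraries with dox lay above all libraries without it. Its rate was 3.37-fold that of 0 h at 18 h (1.19 to 11.7) and 3.87-fold at 24 h (1.42 to 13.1). edgeR with the replicate block called it up at 24 h (log2 fold-change 1.81, adjusted p 0.0499) and not at 18 h (1.64, adjusted p 0.0944). The 24 h call was lost in each of the 9 fits that left out 1 library, where the adjusted p ran from 0.0610 to 0.214, and without the block the adjusted p was 0.0731. Apart from 0 h replicate 2, it had 3 reads or more only in libraries with dox. Over all genes with a read it was not called at either time, with edgeR adjusted p of 0.185 and 0.0988 with the block and 0.220 and 0.118 without it.

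Hoxc6, a thoracic paralog, had 0, 0 and 2 reads at 0 h, 4, 6 and 3 after 18 h, followed by 4, 6 and 5 after 24 h, again with no overlap between libraries with and without dox. The rate was 6.45-fold at 18 h (1.46 to 58.8) and 6.91-fold at 24 h (1.61 to 62.2). edgeR with the replicate block gave it adjusted p of 0.0751 and 0.0532, and over all genes with a read 0.132 and 0.0941, so it was not called. Hoxc5, whose annotated span contains Hoxc6, had 0 reads in all 3 libraries at 0 h. It had 1, 1 and 3 reads at 18 h and 2, 2 and 1 reads at 24 h. As no library held more than 3 reads, no fold is given.

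**Figure D4:**
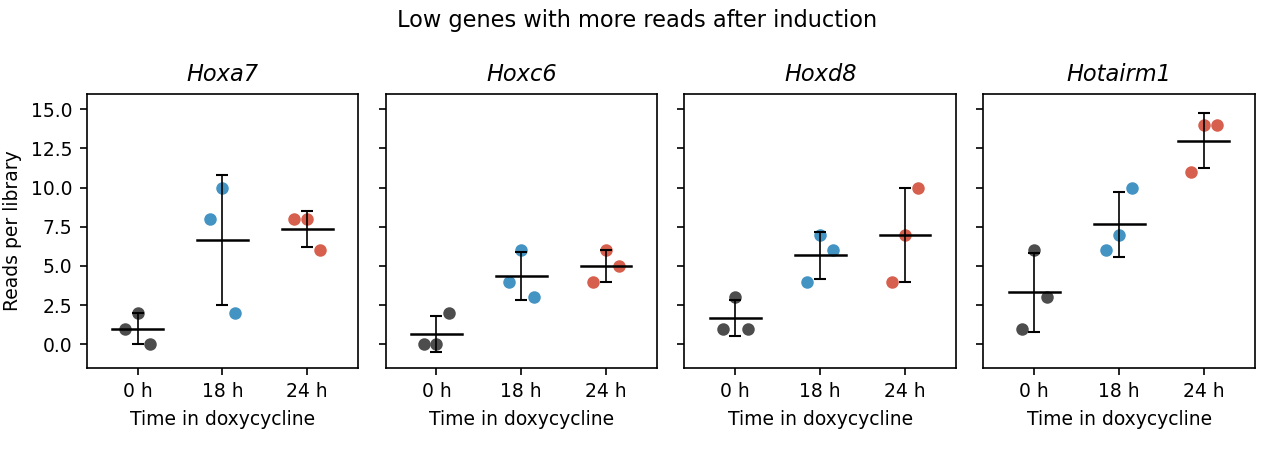
Reads per library of Hoxa7, Hoxc6, Hoxd8 and the antisense RNA gene Hotairm1 by time in dox, with points for the 3 libraries in replicate order, lines for the means and bars for the SD. The 24 h libraries of each gene lie above its 0 h libraries, and all values are at or below 14 reads.

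Across the 24 members with 10 to 60 reads, 5 had every 18 h library above every 0 h library in FPKM, namely Hoxa11, Hoxc5, Hoxc6, Hoxc8 and Hoxd8, where 6.22% of the 4612 genes in this range of reads did. Hoxb1 and Hoxb3 had every 18 h library below, where 7.76% of genes did. At 24 h compared with 0 h, 5 of the 24 lay above, namely Hoxa7, Hoxc5, Hoxc6, Hoxc10 and Hoxd8, where 6.92% of genes did, and Hoxd1 alone lay below, where 9.3% did. Hoxc5, Hoxc6 and Hoxd8 were above in both comparisons, which share the 0 h libraries. At 24 h compared with 18 h, 2 of the 24 lay above, Hoxb8 and Hoxc10, where 3.71% of genes did. There 0 lay below, where 6.96% did. Of the other 14 members, 3 had over 60 reads and 11 under 10, and Hoxc13 at 18 h was the only one of them without overlap. Every 18 h library lay above every 0 h library in 14.4% of the 17951 genes that passed the FPKM filter. Among all 27823 genes with a read the share was 10.4%. In reads rather than FPKM, Hoxa11, Hoxc8, Hoxb1 and Hoxb3 at 18 h and Hoxd1 at 24 h had a library tied with one of 0 h, and Hoxd1 had 2 reads in each 0 h library against 1, 2 and 2.

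Grouped by position, the anterior paralogs (groups 1 to 4, 11 members described) held 0.791, 1.302 and 0.908 RPM at 0 h, 0.568, 0.568 and 0.887 after 18 h, followed by 0.988, 1.12 and 0.982 after 24 h. The 0 h libraries overlapped those of both later time points, every 24 h library lay above every 18 h library, and the 11 genes had 71, 48 and 79 reads in all. Hoxb1, known from a hindbrain rhombomere, had 2, 5 and 5 reads at 0 h, 0, 0 and 2 after 18 h, followed by 2, 1 and 3 after 24 h. In FPKM it was below 0 h in all 3 libraries at 18 h, though 18 h replicate 3 and 0 h replicate 1 were tied at 2 reads, and it overlapped 0 h at 24 h, and edgeR with the replicate block gave its 18 h log2 fold-change of -2.49 an adjusted p of 0.0705. Hoxb3, with 5, 4 and 1 reads at 0 h, had 1 read in each library after 18 h, followed by 9, 5 and 1 after 24 h. Its antisense neighbours share 52.9% of its exons, so that its reads are uncertain where counting did not use strand.

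The central paralogs (groups 5 to 8, 11 members) included the 3 genes described above. All 11 together held 0.999, 0.814 and 0.454 RPM at 0 h, 1.31, 1.79 and 0.929 after 18 h, followed by 1.5, 1.89 and 1.28 after 24 h, so that the 18 h libraries overlapped the 0 h libraries and the 24 h libraries lay above them. Within each replicate number, the libraries with dox lay above the 0 h library. Without Hoxb7, the only detected one, the other 10 held 0.416, 0.488 and 0.272 RPM at 0 h, 1.05, 1.38 and 0.887 after 18 h, followed by 1.23, 1.73 and 1.13 after 24 h. Among these 10, no library with dox overlapped one without. Hoxa7, Hoxc6 and Hoxd8 supplied most of the difference, and the 7 left had 18, 29 and 46 reads in all at the 3 time points. Among these, Hoxb8 had 3, 4 and 2 reads at 0 h, 3, 1 and 2 after 18 h, followed by 7, 11 and 4 after 24 h, so that its 24 h libraries lay above the 18 h libraries and touched the 0 h range. This grouping by position was made after the values were seen and carries no test.

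The posterior paralogs (groups 9 to 13, 16 members) held 2.41, 4.11 and 2.90 RPM at 0 h, 2.79, 4.10 and 3.21 after 18 h, followed by 2.53, 4.01 and 3.51 after 24 h. Replicate 2 was highest at each time point and the groups overlapped. The 16 members together had 223, 241 and 257 reads at the 3 time points, and without Hoxb9, Hoxc13 and Hoxd13 the other 13 members had 31, 43 and 63. Of the 63, Hoxd9 contributed 11 in 24 h replicate 2 against 0 to 3 in every other library. Hoxc10 had 0, 1 and 1 reads at 0 h, 0, 0 and 1 after 18 h, followed by 2, 3 and 4 after 24 h, all of the latter above the earlier ones in FPKM.

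By cluster, the summed RPM on the 10 Hoxa genes described was 0.273 ± 0.124 at 0 h, 0.852 ± 0.212 at 18 h and 0.793 ± 0.0992 at 24 h (SD, n = 3). All libraries with dox, from 0.718 to 1.10, lay above those without, from 0.166 to 0.408. On Hoxc genes it was 0.801 ± 0.189, 1.59 ± 0.271 and 1.54 ± 0.230, and all libraries with dox, from 1.38 to 1.9, lay above those without, from 0.590 to 0.957. On Hoxb genes the rates were 2.36 ± 0.491, 1.58 ± 0.262 and 2.05 ± 0.280, with 18 h below 0 h in all libraries and 24 h overlapping it. On Hoxd genes it was 1.46 ± 0.652, 1.36 ± 0.624 and 1.56 ± 0.568 and overlapped. Hoxc13 supplied 36, 65 and 56 of the 57, 113 and 118 Hoxc reads, and Hoxa7 3, 20 and 22 of the 19, 61 and 61 Hoxa reads.

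**Figure D5:**
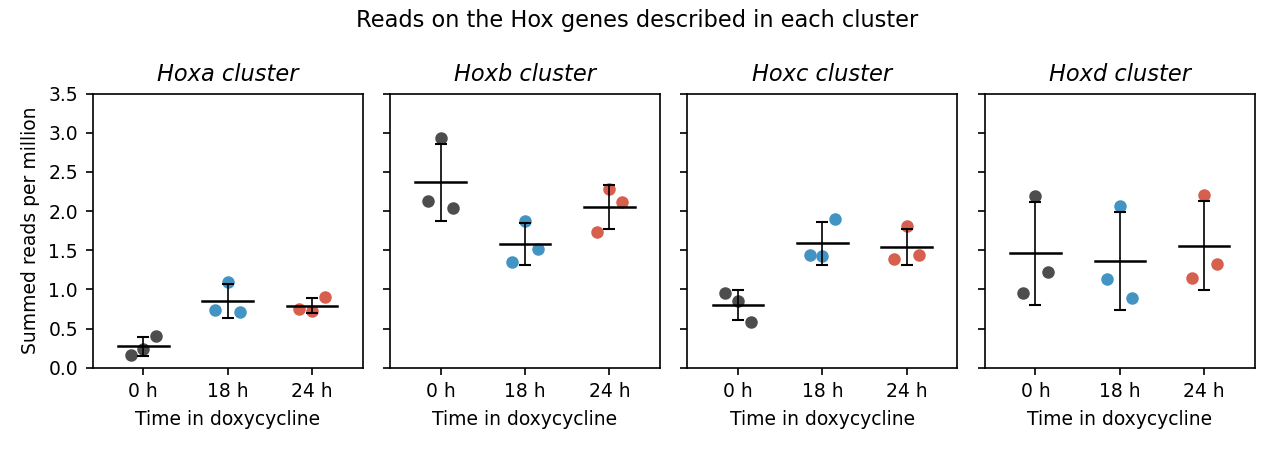
Summed RPM on the Hox genes described in each cluster by time in dox, with points for the 3 libraries in replicate order, lines for the means and bars for the SD. The Hoxa and Hoxc clusters have all 24 h libraries above all 0 h libraries, and the Hoxb and Hoxd clusters overlap between 0 h and 24 h.

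The clusters also hold 46 annotated genes that are not Hox genes, of which 28 had no read in any library and 8 had a mean of at least 0.1 FPKM. Only Hotairm1, an RNA gene of the Hoxa cluster on the opposite strand to its Hox genes, was called by limma. It had 1, 6 and 3 reads at 0 h, 6, 7 and 10 after 18 h, followed by 11, 14 and 14 after 24 h. The 24 h libraries were above all others and the 18 h libraries met the 0 h range at 6 reads. Its log2 fold-change was 1.38 ± 0.33 at 24 h (limma adjusted p 0.0299) and 0.85 ± 0.33 at 18 h (adjusted p 0.146), and the 24 h call was lost when any 1 library of 0 h or 24 h other than 0 h replicate 2 was left out, with a lowest value of 1.04 without 0 h replicate 1. With these 5 fits, 9 of 20 alternatives did not make the call, the others being a pseudocount of 1 FPKM (0.386), no filter, only the time points compared and DESeq2. Its exons overlap a gene on the other strand, and how strand was used in counting is not given in the sources used here.

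Hotair, Mir10a, Mir10b, Mir196b and Evx2 had no read in any library. Mir196a-1, a microRNA gene of the Hoxb cluster, had between 4 and 14 reads in each library and a mean of 3.35 FPKM. The libraries were made for mRNA, so these values do not give the level of mature microRNAs. Gm53, a long intergenic RNA gene between Hoxb13 and Hoxb9, had between 31 and 116 reads and a log2 fold-change of -0.08 ± 0.37 at 24 h (limma adjusted p 0.919). Beyond the clusters, 13 of the 16 nearest protein coding genes had a mean of at least 0.1 FPKM, from 115 reads of Ttll6 upwards in every library, and limma called 0 of the 13 in any comparison, as did edgeR with the replicate block, with 1, 3 and 2 of them at an unadjusted limma p below 0.05 in the 3 comparisons. The counts over all genes at this limma p are those given with the Hox genes.

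Factors known to act with or upstream of Hox genes were described by chosen lists. Of the 11 axial and hindbrain regulators described, 10 were tested and limma called 0 in any comparison. At 24 h compared with 0 h, 2 of the 10 had an unadjusted limma p below 0.05. There edgeR called 1 of them without the replicate block and 2 with it. Of the 19210 genes it tested at 24 h, edgeR called 539 up and 241 down without the block, and 678 and 340 with it. Of the Cdx and other ParaHox genes, 4 of 6 passed the filter, and at 24 h limma called 1 up and 2 down, with a list median log2 fold-change of -0.64 against 0.00 over all genes tested. Cdx2, a caudal homeodomain activator of central Hox genes and a trophectoderm factor, had 13, 28 and 33 reads at 0 h, 92, 135 and 129 after 18 h, followed by 162, 192 and 257 after 24 h. All libraries with dox lay above all without, with log2 fold-changes of 2.05 ± 0.29 at 18 h and 2.68 ± 0.29 at 24 h (limma adjusted p 0.00476 and 0.00117). Cdx4, its relative, fell by 1.33 ± 0.26 and 1.71 ± 0.26 log2 units (adjusted p 0.0170 and 0.00499), from 76, 126 and 114 reads at 0 h to 24, 34 and 39 at 24 h. Its 18 h call was not made by 4 of 20 alternatives, among them the fits without 0 h replicate 3 (-1.21) and without 18 h replicate 3 (-1.28). Cdx1 was not called at 24 h (log2 fold-change 0.31 ± 0.32, limma adjusted p 0.569), and Gsx1, a forebrain and spinal cord factor, fell by 1.58 ± 0.39 log2 units at 24 h (limma adjusted p 0.0347), a call that 9 of 20 alternatives did not make.

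Of the 8 TALE cofactors described here, which bind DNA together with Hox proteins, all 8 were tested and 1 was called, Pknox2, up by 1.2 ± 0.31 at 18 h and 1.69 ± 0.31 log2 units at 24 h (limma adjusted p 0.0482 and 0.0114). Its 18 h call was not made by 12 of 20 alternatives and its 24 h call by 3 of 20, the pseudocount of 1 FPKM (0.976) and the fits without 24 h replicate 2 (1.56) or 24 h replicate 3 (1.54). Meis1 was not called at 24 h (log2 fold-change 0.22 ± 0.22). Of the 15 retinoic acid receptors and enzymes, 13 were tested and limma called only Aldh1a2, which makes retinoic acid, with rises of 1.59 ± 0.14 and 1.75 ± 0.14 log2 units (limma adjusted p 0.000664 and 0.000305). Its 18 h call was not made by 1 of 20 alternatives, over which the lowest value was 0.953. At 24 h 2 of the 13 passed the adjusted p of limma as higher and 3 as lower. Crabp2 (0.76 ± 0.10), Rarg (-0.79 ± 0.14) and Rara (-0.61 ± 0.08) passed it without the minimum fold-change (limma adjusted p 0.00302, 0.0108 and 0.00320). Rxrg, a retinoid X receptor, passed the adjusted p of limma at 24 h but not the minimum fold-change (log2 fold-change -0.96 ± 0.25, adjusted p 0.0378). edgeR without and with the replicate block and DESeq2 called it down at -1.003, -1.03 and -1.01 (adjusted p 0.0216, 0.000145 and 0.00277). Cyp26a1, which degrades retinoic acid, and Rarb, a known retinoic acid target, had 24 h log2 fold-changes of -0.53 ± 0.23 and 0.28 ± 0.36 (adjusted p 0.167 and 0.644).

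The 24 Polycomb subunits and the 10 Trithorax subunits, H3K27 demethylases and Ctcf were all tested, and limma called 0 of either list in any comparison. At 24 h compared with 0 h 13 and 5 of them had an unadjusted p below 0.05, and 8 Polycomb genes passed the adjusted p without reaching the minimum fold-change, 3 higher and 5 lower. Over all 17951 genes tested, 2690 were higher and 2372 lower at this unadjusted p, and 1171 and 917 passed the adjusted p. edgeR without the block and DESeq2 also called 0 of either list, and edgeR with the replicate block called 1 Polycomb gene at 18 h and 1 at 24 h. Their summed levels were between 543 and 601 FPKM at 0 h and between 490 and 523 FPKM at 24 h for Polycomb, and between 339 and 365 FPKM and between 326 and 346 FPKM for the other list. Of 8 posterior mesoderm markers 5 were tested and Meox1 was called up, by 1.68 ± 0.29 at 18 h and 1.70 ± 0.29 log2 units at 24 h (limma adjusted p 0.0116 and 0.00877), calls that 2 and 1 of 20 alternatives did not make, while Msgn1 had no read and Mesp1 at most 2 reads in any library. The other 4 tested, none called by limma, had log2 fold-changes below 0 at 24 h, -0.90 ± 0.44 for the mesoderm factor T, -0.23 for Hes7, -0.17 for Kdr and -0.12 for Tbx6, and the median of the 5 was -0.17. edgeR with the replicate block called T down at 24 h. The summed level of these 8 markers was between 1.73 and 2.57 FPKM at 0 h, between 1.56 and 2.82 FPKM at 18 h and between 1.60 and 2.16 FPKM at 24 h. The 8 neuron markers summed to between 69.7 and 83.4 FPKM at 0 h, between 80.0 and 98.7 FPKM at 18 h and between 83.8 and 109 FPKM at 24 h. Tubb3, a tubulin, had the highest level of them, with means of 41.5, 58.7 and 63.1 FPKM at the 3 time points, while Stmn2, next in level, had 27.9, 21.5 and 23.2 FPKM. Of the 7 neuron markers tested, limma called Nhlh1, a factor of young neurons, up at 24 h (log2 fold-change 1.18 ± 0.30, adjusted p 0.0378), a call that 11 of 20 alternatives did not make. At 24 h 4 of the 7, Stmn2, Elavl3, Elavl4 and Neurod1, had log2 fold-changes below 0, from -0.27 to -0.077, and the median of the 7 was -0.077. Stmn2 passed the adjusted p at 18 h without the minimum fold-change (-0.38 ± 0.08, adjusted p 0.0231). All 10 ESC markers were tested, and limma called Tdgf1, a Nodal co-receptor, and Fgf4, a growth factor of ESCs, down at both times. Tdgf1 fell by 1.27 ± 0.10 and 1.46 ± 0.10 log2 units (adjusted p 0.000295 and 0.000115), and Fgf4 fell by 1.04 ± 0.25 and 1.25 ± 0.25 (adjusted p 0.0405 and 0.0170), calls that 10 and 3 of 20 alternatives did not make for Fgf4. The core pluripotency factors Nanog and Pou5f1 passed the adjusted p at 24 h (0.00735 and 0.0220) but not the minimum fold-change, with log2 fold-changes of 0.86 ± 0.14 and -0.58 ± 0.13. The part of these markers in the Hox values was not tested.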

How the data were processed

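RNA was measured in 9 libraries, 3 at each of 0 h, 18 h and 24 h. Per the paper's methods and the labels, the authors made TruSeq stranded mRNA libraries, sequenced them on the HiSeq4000, trimmed with cutadapt 1.9, aligned with STAR to GRCm38 and tested with edgeR 3.16.5. How reads were assigned to overlapping genes is not given in the sources used here. The authors deposited FPKM for 47729 genes, which are scaled for exon length and library size, and for 19210 filtered genes, those with at least 3 reads in at least 3 libraries, a signal that is CPM scaled to an effective library size. They also deposited log2 fold-changes, p-values and false discovery rates of their own comparisons and mean CPM, which were not used.

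Reads were recovered from the step that a single read makes in each library's values, and 100% of the values of the filtered table came out whole within 0.01, as did the 8613 further genes with reads. For the 38 members described the implied length equalled the exon length of GENCODE M21, which gave coordinates. Depth is given in the report, and p-values measure the spread between the biological replicates. Replicates differed by more than sampling noise (chi-square per degree of freedom 5.79 to 17.8).

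Since the main table holds FPKM, limma 3.58.1 in R 4.3.3 was run on log2(FPKM+0.1) with an intensity trend over all 9 libraries and the 17951 genes whose mean reached 0.1 FPKM, with Benjamini-Hochberg adjustment. A call needed an adjusted p no higher than 0.05 together with a change of 1 log2 unit or more either way. edgeR 4.0.16 (quasi-likelihood) and DESeq2 1.42.0 on recovered reads were alternatives. Other alternatives were the pseudocount, the filter, the trend, quantile normalization, the time points fitted, a replicate block and leaving out each library. Deviations from the time point means in same-numbered libraries correlated with r of 0.211 to 0.548 in 9 pairs over 11893 genes, against -0.399 to 0.110 in 18 other pairs, so the numbers were taken to pair the libraries.

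All members described are accounted for, with values per library for those called in any fit and the 6 highest at 0 h. A Hox gene and other listed genes are not reported here. Members and lists were chosen with earlier results of these data known.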

Additional observations from a re-analysis of the deposited data

How the results depend on the processing

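The counts of Hox genes called by limma stayed at 0 in each comparison and direction under the pseudocounts of 1 and 0.01 FPKM, no filter, no trend, quantile normalization, only the time points compared, no minimum fold-change, the limma replicate block and each left-out library, and with edgeR without a block and DESeq2. With the replicate block, edgeR called 1 Hox gene up at 18 h and 2 at 24 h. In fits over all genes with a read, chosen after seeing the data, edgeR called 1 up at 18 h and 1 at 24 h, both without and with the replicate block. The cause of these differences was not tested. Detected members at 0 h were 0 of 38 at 1 FPKM and 14 of 38 at any value above 0. Left-out libraries reversed small values that were never called. Hoxb9 ranged from -0.37 to 0.011 at 18 h and from -0.37 to 0.095 at 24 h compared with 18 h. Hoxb7 at 24 h compared with 18 h ranged from -0.49 to 0.26, and was 0.10 with a pseudocount of 0.01 FPKM. Hoxd13 ranged from -0.60 to 0.071 at 18 h, from -0.48 to 0.15 at 24 h and, at 24 h compared with 18 h, from -0.22 to 0.40. Meox1 at 24 h compared with 18 h, never called, was -0.022 with quantile normalization, -0.0084 with DESeq2, -0.0046 with edgeR, -0.0037 with edgeR and the replicate block, -0.00442 with edgeR over all genes with a read, and from -0.17 to 0.23 with a library left out. The limit of 3 reads per library for the 16 silent genes is a chosen cut at this depth. These genes had between 1 and 16 reads over the 9 libraries, so silent does not mean without reads.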
